A study of Mus musculus with 10 samples.

Results

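The core circadian clock loop was followed through 8 genes: the activators Arntl, Npas2 and Clock and the repressors Cry1, Cry2, Per1, Per2 and Per3. Each gene was read from its brightest probe set that carried 1 gene symbol on the array, and 7 of the 8 had such a probe set, exactly 1 each. The probe set for Per2 carried a second symbol, so Per2 is not reported. All 7 passed the filter on low values and stand among 18826 genes tested. The arrays measured RNA from salivary gland cells of female NOD/shiLtJ mice, freed from the tissue with collagenase and dispase, in 10 samples. The strain is prone to autoimmune diabetes and to inflammation of the salivary glands. There were 4 samples from mice of 21 weeks with type 1 diabetes, 3 from mice of 21 weeks with no diabetes and 3 from mice of 6 weeks with no diabetes, 1 array each. The labels do not give the time of day of collection, how diabetes was determined or which salivary gland was taken. Since these genes cycle, a difference in collection time between groups cannot be told apart from the differences with diabetes or age given here. Samples are numbered within a group, with no word on whether each is 1 mouse or a pool, so p-values measure the spread between these samples. The small number of arrays limits the precision of every value.

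In the clock, ARNTL (also called BMAL1) pairs with CLOCK or its relative NPAS2 and switches on the Per and Cry genes through E-box elements. The PER and CRY proteins then gather and inhibit that pair, which closes a loop of about a day. In most tissues the Arntl and Npas2 transcripts peak when the Per transcripts are low. A second loop acts on Arntl itself, where REV-ERB proteins (Nr1d1, Nr1d2) repress and ROR proteins activate through an element called the RRE. DBP, TEF and HLF activate, and NFIL3 represses, genes that hold a D-box. Per1 is also an acute responder, induced within a short time by cAMP signalling through CREB and by glucocorticoids. In salivary glands, clock genes cycle and salivary flow follows a daily rhythm.

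These elements could be seen in the reference sequence next to several of the genes measured. Promoter windows from RefSeq (GRCm38.p6, strain C57BL/6J), from 250 bases before to 50 after a start, were found for the 7 genes, 11 windows in all. Both strands were searched for the E-box CACGTG, the E′-box CACGTT, the cAMP response element TGACGTCA and its shorter form TGACG, a D-box TTATGTAA, the RRE core TAGGTCA and the glucocorticoid response element. TGACG is part of TGACGTCA, and the other motifs share no full match. The stretches below are shown because they hold these matches in genes whose levels are described next. The matches are in capitals, 5′ to 3′ along the gene, and a motif on the opposite strand appears as its reverse complement.
Cry1, chr10:85185087-85185155, minus strand: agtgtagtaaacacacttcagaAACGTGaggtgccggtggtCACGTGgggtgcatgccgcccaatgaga
Per1, first start, chr11:69098761-69098810, plus strand: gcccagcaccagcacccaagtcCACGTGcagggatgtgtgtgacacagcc
Per1, second start, chr11:69099998-69100046, plus strand: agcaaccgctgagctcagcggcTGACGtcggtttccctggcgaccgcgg
Per3, chr4:151044794-151044892, minus strand: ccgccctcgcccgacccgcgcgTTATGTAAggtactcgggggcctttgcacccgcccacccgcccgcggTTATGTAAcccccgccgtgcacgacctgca
Cry2, chr2:92434208-92434300, minus strand: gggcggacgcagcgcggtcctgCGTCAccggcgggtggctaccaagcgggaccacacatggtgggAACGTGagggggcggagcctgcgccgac
Arntl, second start, chr7:113207529-113207558, plus strand: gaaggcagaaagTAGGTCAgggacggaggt

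The E-box lay at position -60 from the start in Cry1 and at -166 from the first start in Per1, and 7.15% of all 32851 windows held one. Cry1 and Cry2 each held the E′-box, found in 4.68% of all windows. The Per3 window held 2 copies of the D-box, at -205 and -158, an element present in 0.938% of windows. The RRE core of Arntl lay after its second start, at position 31, and 2.61% of windows held one. The short form TGACG was in the windows of Cry1, Cry2 and Per1 and in 20.8% of all windows. The full TGACGTCA (1.79% of windows) matched in 0 of the 7 genes. The glucocorticoid response element was searched only as an exact palindrome, held by 3 of all 32851 windows (0.00913%), and matched in 0 of the 7. With so strict a form, that 0 cannot show that a gene lacks such an element. Clock and Npas2 had 0 matches to any motif. A match describes letters in this window only.

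Per1, the acute-responding repressor, was the clearest change in the diabetic glands. Its log2 intensity was 6.95, 7.27, 8.25 and 7.82 on the diabetic arrays, 6.01, 5.56 and 5.40 on the nondiabetic 21-week arrays and 6.26, 6.29 and 6.55 on the 6-week arrays. All diabetic values lay above all others, and the nondiabetic 21-week values lay below those at 6 weeks. Per1 rose 3.78-fold in diabetic against nondiabetic mice of the same age (log2 change 1.92 ± 0.26, standard error of the limma fit, adjusted p = 0.00382). Only 0.186% of all genes had a higher log2 change. The adjusted p of this rise stayed between 0.00196 and 0.0303 over 20 alternative analyses.

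Per3, also a repressor, moved the same way. Its log2 intensity was 5.02, 5.13, 5.80 and 4.86 on the diabetic arrays, 4.42, 4.19 and 3.98 on the nondiabetic 21-week arrays and 3.88, 4.07 and 3.70 on the 6-week arrays. The diabetic arrays lay above the rest without overlap, and the nondiabetic groups of different age overlapped. Per3 rose 2.01-fold with diabetes (log2 change 1.01 ± 0.20, adjusted p = 0.0322). The call was lost without diabetic array 2 (adjusted p = 0.0705) or 3 (0.0526) and without nondiabetic 21-week array 1 (0.0507), 2 (0.0785) or 3 (0.138), while the log2 change stayed between 0.81 and 1.12.

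**Figure D1:**
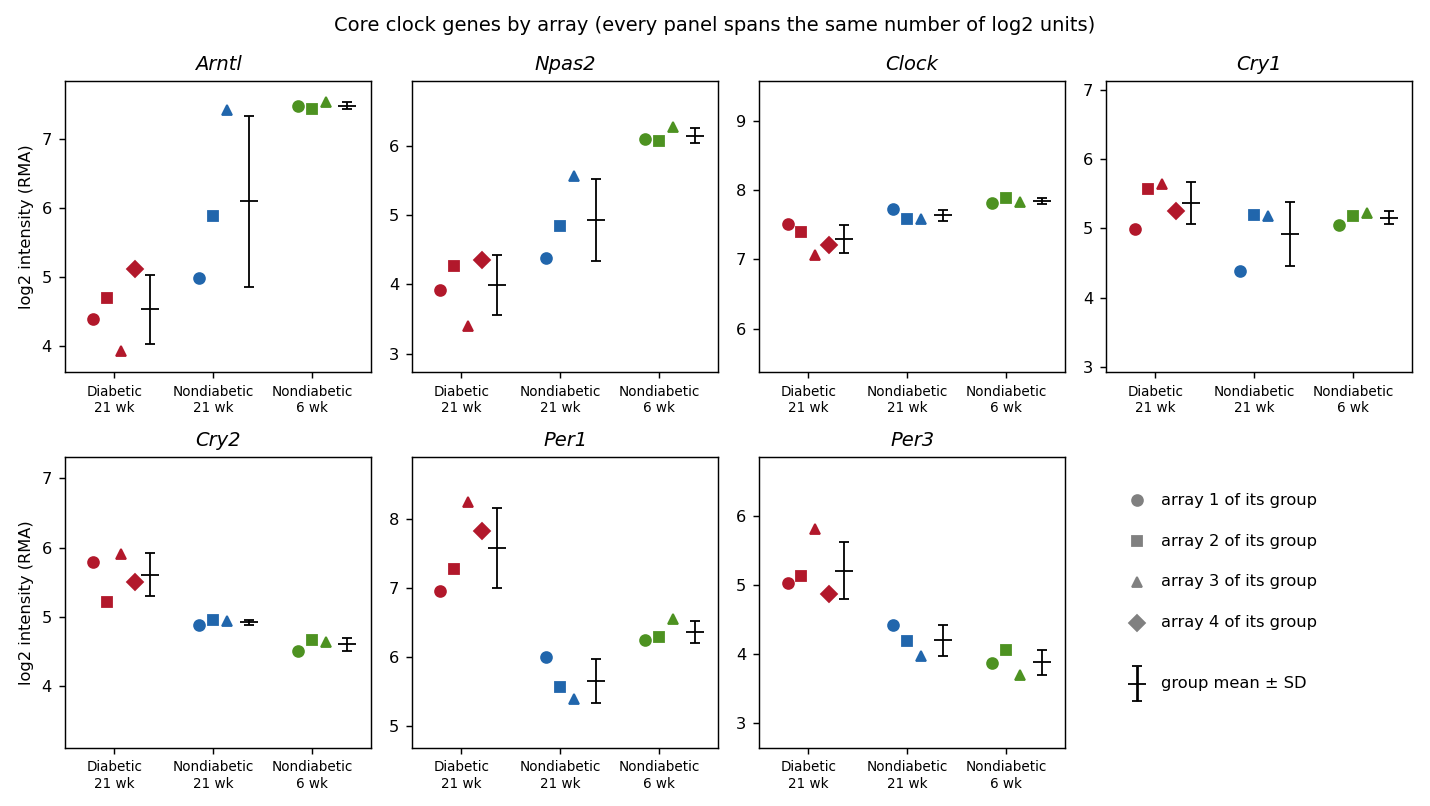
Log2 intensity (RMA) of the 7 core clock genes on each of the 10 arrays, by group, with the group mean and SD (n = 4, 3 and 3). The diabetic arrays lie highest for Per1, Per3 and Cry2 and lowest for Npas2 and Clock, and for Arntl the nondiabetic 21-week arrays span from the diabetic range (4.98) to just below the 6-week range (7.42).

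The cryptochromes bind PER proteins and are the strongest inhibitors of the CLOCK and ARNTL pair. Cry2 stood at 5.80, 5.22, 5.91 and 5.51 on the diabetic arrays, 4.88, 4.95 and 4.94 on the nondiabetic 21-week arrays and 4.50, 4.67 and 4.64 on the 6-week arrays. The 3 groups did not overlap, with the diabetic arrays highest and the 6-week arrays lowest. The diabetic minus nondiabetic difference of Cry2 was 0.68 ± 0.16 on the log2 scale (95% interval 0.34 to 1.03, adjusted p = 0.0536), which did not pass the threshold of 0.05. Cry2 did pass with 4 of the 20 alternatives, with the smallest adjusted p at 0.0231, reached without diabetic array 2. Cry1 ranged from 4.99 to 5.64 on the diabetic arrays, from 4.39 to 5.19 on the nondiabetic 21-week arrays and from 5.05 to 5.23 on the 6-week arrays. The groups overlapped for Cry1, whose diabetic difference was 0.45 ± 0.21 (95% interval -0.0023 to 0.90, adjusted p = 0.318).

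Among the activators, Arntl showed the widest spread of the 7 genes. Its log2 intensity was 4.40, 4.70, 3.93 and 5.11 on the diabetic arrays, 4.98, 5.88 and 7.42 on the nondiabetic 21-week arrays and 7.47, 7.42 and 7.53 on the 6-week arrays. The 6-week mice were tightly grouped and high, the diabetic mice were low, and the nondiabetic 21-week mice filled the distance between them. The diabetic difference of Arntl was -1.56 ± 0.43 (adjusted p = 0.102) and did not pass. Without nondiabetic 21-week array 1 it passed, at -2.11 (adjusted p = 0.0268), and without array 3 of that group it was -0.90 (adjusted p = 0.251).

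Npas2, which can stand in for CLOCK as the partner of ARNTL, followed Arntl array by array. Its values were 3.92, 4.27, 3.40 and 4.35 on the diabetic arrays, 4.38, 4.84 and 5.56 on the nondiabetic 21-week arrays and 6.10, 6.07 and 6.27 on the 6-week arrays. The 3 groups did not overlap, although the nearest diabetic and nondiabetic arrays lay at 4.35 and 4.38. The diabetic difference of Npas2 was -0.94 ± 0.26 (adjusted p = 0.107). Clock, the histone acetyltransferase partner, varied least and ranged from 7.06 to 7.51, 7.59 to 7.73 and 7.81 to 7.89 in the diabetic, nondiabetic 21-week and 6-week groups. The Clock groups did not overlap either, and the diabetic difference was -0.34 ± 0.13 (adjusted p = 0.225).

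Taking the 7 genes in the diabetes comparison, 2 rose (Per1 and Per3), 0 fell and 5 did not pass, against 1.1% of all genes tested that rose and 0.34% that fell (1.44% in either direction). With quantile normalization the split of calls over all genes moved from 207 higher and 64 lower to 130 and 100, and both Per1 and Per3 kept their calls. The groups did not overlap for 5 of the 7, and for 14.1% of all genes. All 4 repressors measured had a positive log2 difference and all 3 activators a negative one. Of all genes tested, 56.0% had a positive difference. The interval of Cry1 ran from -0.0023 to 0.90, so its sign was not settled. Arntl and Npas2 followed each other closely over the 10 arrays (Pearson r = 0.983), so their signs are not separate evidence. The median size of the log2 difference, sign aside, was 0.94 over the 7 genes and 0.16 over all genes.

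Other gene groups moved with the diabetic arrays, and their part in the clock gene differences was not tested. Over all genes tested, 1.1% rose with diabetes and 0.34% fell. Immediate-early genes, which respond fast to stimulation and tissue handling, had 14 of 20 members that rose. Their mean log2 level was 6.91 to 7.38 on diabetic, 6.03 to 6.25 on nondiabetic 21-week and 6.07 to 6.33 on 6-week arrays. Glucocorticoid targets other than Per1, a list that shares Dusp1 with the one before, had 4 of 14 members that rose, with a mean level of 6.23 to 6.69 on diabetic, 5.55 to 5.86 on nondiabetic 21-week and 5.82 to 6.17 on 6-week arrays. Nr3c1, the glucocorticoid receptor, had a diabetic log2 difference of 0.47 ± 0.14 (adjusted p = 0.143). Marker genes of salivary gland cells differed too. Serous and parotid cargo genes rose in 6 of 9 (mean level 10.02 to 10.35 on diabetic, 6.00 to 7.65 on nondiabetic 21-week and 6.34 to 8.97 on 6-week arrays). Granular convoluted tubule genes fell in 11 of 12 (5.37 to 7.21, 9.49 to 10.14 and 8.37 to 8.83). In bulk RNA, fewer cells of a type and less RNA per cell cannot be told apart. As the labels do not name the gland, differing shares of parotid, sublingual or submandibular tissue cannot be told apart from these either.

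Further marker lists were read on the same arrays. Over all genes, 1.1% rose and 0.34% fell for diabetes at the adjusted threshold, and 15.8% had an unadjusted p under 0.05. Markers of acinar cells of any gland were present throughout, at a mean level of 8.14 to 8.82, with 0 of 4 past the threshold for diabetes and 1 at an unadjusted p under 0.05. Macrophage markers rose in 2 of 9 (6 unadjusted), with a mean level of 5.54 to 6.27 on diabetic and 4.82 to 5.08 on nondiabetic 21-week arrays. Adipocyte markers rose in 3 of 7 (5 unadjusted), with 4.70 to 5.15 and 3.62 to 4.11. T cell markers passed in 0 of 10 (1 at an unadjusted p under 0.05), with 4.07 to 5.19 and 3.89 to 4.49. B cell markers passed in 0 of 7 (0 unadjusted), with 3.87 to 5.58 and 3.57 to 4.32. Mucous genes rose in 1 of 5 (5 unadjusted), with 9.14 to 9.74 and 3.75 to 9.17. All 5 mucous genes had positive differences, with a median of 3.67. Fibroblast markers passed in 0 of 6 (3 unadjusted), although all 6 had positive differences (median 0.87) and their mean level did not overlap, at 6.19 to 6.53 and 5.09 to 5.86. The counts were 0 for endothelial markers (of 5, 1 unadjusted) and for muscle markers (of 3, 1 unadjusted). Nondiabetic 21-week array 3 and diabetic array 4 stood furthest from the rest over all genes, with a correlation of 0.917 between them. Without both, Per1 rose 3.26-fold (adjusted p = 0.0303) and Per3 stood at 1.01 on the log2 scale (adjusted p = 0.0657).

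**Figure D2:**
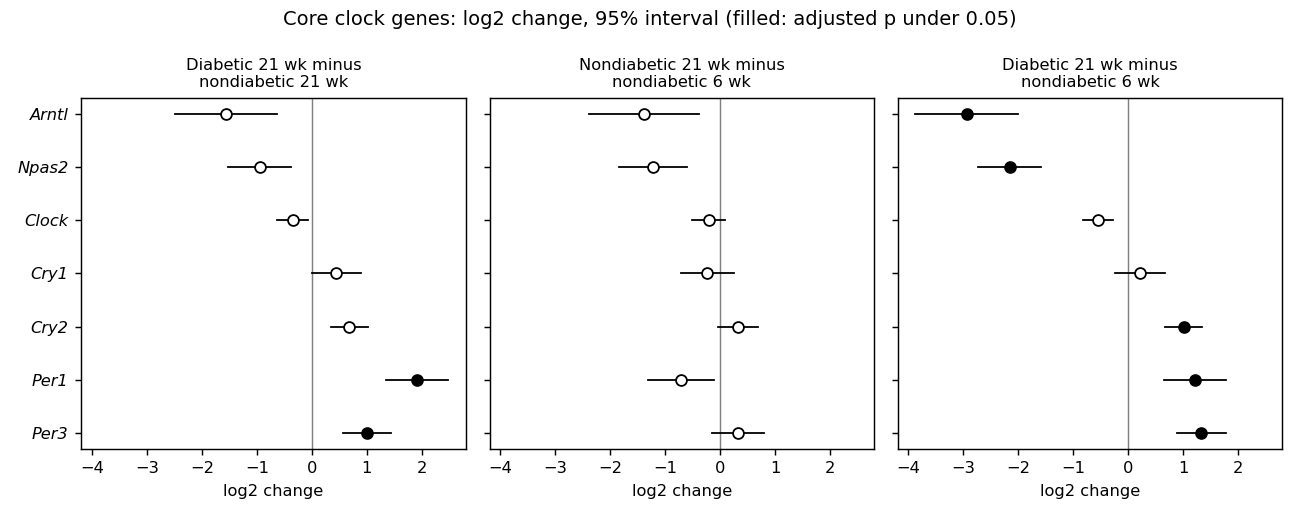
Log2 change of each core clock gene in the 3 comparisons, with the 95% interval of the limma fit, filled where the adjusted p was under 0.05. Repressors lie to the right and activators to the left in both comparisons of the diabetic mice, and the comparison of the nondiabetic mice by age has 0 filled points.

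The comparison of nondiabetic mice at 21 and 6 weeks gave the differences with age. Age cannot be told apart here from anything else that differed between those groups, such as collection time. Arntl and Npas2 had the largest differences of the 7 genes, both toward lower levels at 21 weeks, at -1.38 ± 0.46 (adjusted p = 0.572) and -1.22 ± 0.28 (adjusted p = 0.359). For either gene, 0 of the nondiabetic 21-week arrays reached the 6-week range. Per1 was also lower at 21 weeks, by 1.63-fold on average (log2 difference -0.71 ± 0.28, adjusted p = 0.629), which is the opposite sign to its diabetes difference. Both comparisons use the nondiabetic 21-week arrays, on opposite sides, so low values there alone push the differences apart. Cry2 (0.32 ± 0.17, adjusted p = 0.699) and Per3 (0.32 ± 0.22, adjusted p = 0.769) had positive differences, and Clock (-0.21 ± 0.14, adjusted p = 0.759) and Cry1 (-0.23 ± 0.22, adjusted p = 0.832) negative ones.

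By limma 0 of the 7 genes passed for age and 3 had an unadjusted p under 0.05, while over all genes 0.0266% passed and 7.47% had such a p. The groups did not overlap for 5 of the 7, and for 13.8% of all genes. The age differences of Arntl and Npas2 were larger without nondiabetic 21-week array 3, whose Arntl value of 7.42 lay just below the lowest 6-week value. Without that array the difference of Arntl was -2.04 (adjusted p = 0.0628) and that of Npas2 -1.53 (adjusted p = 0.0826). Without both arrays that stood apart, Arntl (adjusted p = 0.0154) and Npas2 (adjusted p = 0.028) passed. Without array 1 of the same group the difference of Arntl was -0.83 (adjusted p = 0.59) and that of Npas2 -0.94 (adjusted p = 0.459).

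The comparison of diabetic 21-week with nondiabetic 6-week mice joins diabetes and age, and its differences are the sums of those above. It shares arrays with both other comparisons and is no separate evidence. Arntl fell 7.67-fold (log2 change -2.94 ± 0.43, adjusted p = 0.00668) and Npas2 fell 4.47-fold (-2.16 ± 0.26, adjusted p = 0.00317). Cry2 rose 2.00-fold (adjusted p = 0.00959), Per3 rose 2.50-fold (adjusted p = 0.00895) and Per1 rose 2.31-fold (adjusted p = 0.041). Clock had a log2 difference of -0.55 ± 0.13 (adjusted p = 0.0582) and Cry1 of 0.21 ± 0.21 (adjusted p = 0.683).

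That made 3 genes that rose and 2 that fell out of 7, against 0.903% and 0.542% of all genes (1.44% in either direction). With quantile normalization the calls over all genes moved from 170 higher and 102 lower to 157 and 162, and all 5 clock genes kept theirs. The groups did not overlap for 6 of the 7, Cry1 being the exception, and for 16.7% of all genes. The calls of Arntl and Npas2 held in all 20 alternatives, with the highest adjusted p at 0.0492 and 0.024. Per1 lost its call in 11 of the 20, most of them analyses without 1 array (adjusted p up to 0.151, without 6-week array 2). Cry2 lost it without 6-week array 1 (0.0505) or 3 (0.0551), and Per3 without 6-week array 3 (0.0628). Clock passed in 5 of the 20, with the smallest adjusted p at 0.0258.

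**Figure D3:**
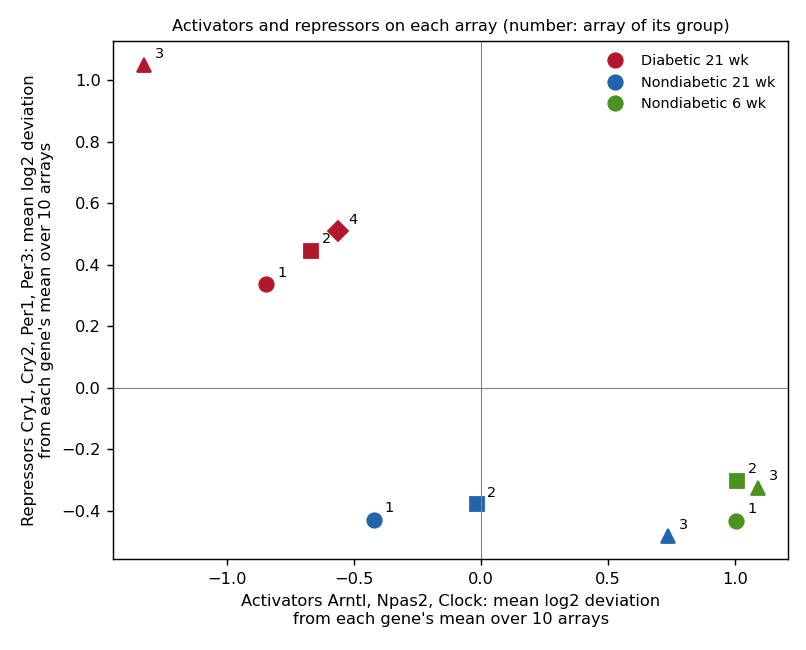
Each point is an array. The axes give the mean log2 deviation of the 3 activators and of the 4 repressors from each gene's own mean over the 10 arrays. Diabetic arrays lie at upper left (activators -1.32 to -0.56, repressors 0.34 to 1.05), and the nondiabetic arrays lie below 0 for the repressors (-0.48 to -0.30) and spread along the activator axis.

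Set side by side on each array, the activators and the repressors both separated the diabetic from all nondiabetic arrays. The mean deviation of the repressors from each gene's own mean over all arrays was 0.34, 0.45, 1.05 and 0.51 on the diabetic arrays. On the nondiabetic arrays of either age it lay between -0.48 and -0.30. The mean deviation of the activators was -0.84, -0.67, -1.32 and -0.56 on the diabetic arrays, -0.42, -0.02 and 0.73 on the nondiabetic 21-week arrays and 1.00, 1.01 and 1.09 on the 6-week arrays. The activators did not overlap between any of the 3 groups, while the repressors of the nondiabetic groups overlapped. Diabetic array 3 was the most extreme array on both axes, with the highest Per1, Per3 and Cry2 and the lowest Arntl, Npas2 and Clock of all.

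Samples of one group differed more in these genes than in most. The pooled SD within groups was 0.74 log2 units for Arntl, above 99.6% of all genes tested. It was 0.43 for Npas2 (above 96.1%), 0.42 for Per1 (95.8%), 0.32 for Cry1 (86.0%) and 0.31 for Per3 (84.8%). Cry2 at 0.21 (53.0%) and Clock at 0.14 (18.2%) varied no more than a usual gene, and the median over all genes was 0.20. For Arntl the spread came from the nondiabetic 21-week mice, whose SD was 1.23 (n = 3) against 0.50 in the diabetic (n = 4) and 0.05 in the 6-week mice (n = 3).

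Within groups, the deviations of the genes from their group means were compared over the 10 arrays for all 21 pairs, with two-sided exact permutation tests that shuffled arrays only within groups. Arntl and Npas2 varied together (Pearson r = 0.947, Spearman rho = 0.976, each with adjusted p = 0.0243, from the smallest p that the 864 permutations can give). Without the 2 arrays farthest from the median of Arntl, r was 0.946. Per3 had negative correlations with Npas2 (r = -0.835, exact permutation p = 0.00694, adjusted 0.0729; rho = -0.879, adjusted 0.0608) and with Arntl (r = -0.686, exact permutation p = 0.0104, adjusted 0.0729; rho = -0.818, adjusted 0.0648). Neither passed the adjustment over 21 pairs, and without the 2 farthest arrays r was -0.789 and -0.83. The pair of Per1 and Per3 had r = 0.59 (exact permutation p = 0.227, adjusted 0.60), falling to 0.07 without the 2 farthest arrays. Clock and Per1 had r = -0.713 (exact permutation p = 0.166, adjusted 0.60), and -0.0101 without the 2 arrays farthest for Clock. The other 16 pairs had adjusted p-values of 0.60 or more for r.

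**Figure D4:**
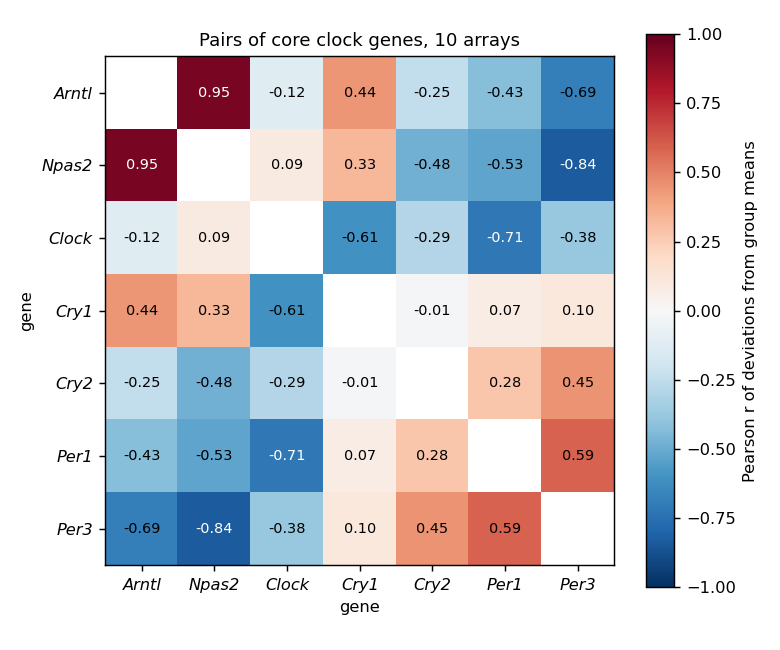
Pearson correlation of the deviations from group means between each pair of core clock genes over 10 arrays (colour and number). Arntl and Npas2 have the highest value, 0.95, and Npas2 and Per3 the lowest, -0.84.

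The genes most like each called member over the 10 arrays were found by Pearson correlation, as a description that the group differences dominate. Npas2 (r = 0.983), Pitpnm2 (0.97) and Cldn1 (0.96), a tight junction claudin, were nearest to Arntl. Nearest to Npas2 were Arntl, Eif4g3 (0.978), a translation initiation factor, and Pitpnm2 (0.976). Per1 was followed most closely by Pgap6 (0.989), Mcl1 (0.981), a survival factor of the BCL2 family, and Smc5 (0.975), a chromosome maintenance protein. Per3 had Ankrd12 (0.974), Sh3rf2 (0.957) and the clock output gene Dbp (0.951). Cry2 had Serinc5 (0.951), Fam107b (0.937) and Tmem30b (0.931). After group means were removed, these correlations were 0.947, 0.839 and 0.814 for Arntl and 0.947, 0.848 and 0.875 for Npas2. They were 0.933, 0.898 and 0.894 for Per1, 0.851, 0.759 and 0.742 for Per3, and 0.723, 0.558 and 0.58 for Cry2.

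Of 36 accessory and output clock genes, 32 were tested. With diabetes 4 rose, 0 fell and 28 did not pass, against 1.1% of all genes that rose and 0.34% that fell. The median log2 difference was 0.23 against 0.03 over all genes. Dbp, the D-box activator and a direct target of the loop, stood at 7.13, 7.33, 8.01 and 7.23 on the diabetic arrays, 6.73, 5.77 and 4.93 on the nondiabetic 21-week arrays and 5.22, 5.51 and 5.41 on the 6-week arrays. The diabetic arrays lay above all others, and the nondiabetic 21-week arrays were again the most spread. Dbp rose 3.06-fold (adjusted p = 0.033). Usp2, a deubiquitinase under clock control, rose 2.59-fold (adjusted p = 0.00757). Bhlhe41 and Bhlhe40, E-box binding repressors of the loop, rose 2.19-fold (adjusted p = 0.00493) and 1.60-fold (adjusted p = 0.0322).

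The REV-ERB genes, repressors of Arntl, did not pass. Nr1d2 had a diabetic log2 difference of 1.11 ± 0.34 (adjusted p = 0.145) with groups that did not overlap, and Nr1d1 of 0.47 ± 0.25 (adjusted p = 0.399) with overlap. Nr1d2 was lowest of all on nondiabetic 21-week array 3, at 4.16, the array with the highest Arntl of its group. The same array was also lowest of all for Nr1d1 (6.64), for the ROR gene Rora (4.87) and for the mean of the accessory list (5.20). It is an array that stood apart over all genes, so its REV-ERB and Arntl values cannot be linked here. Among the other D-box factors, Tef stood at 0.72 ± 0.17 (adjusted p = 0.065), Hlf at -0.02 ± 0.12 (adjusted p = 0.958) and the repressor Nfil3 at -0.24 ± 0.19 (adjusted p = 0.58). Ciart, a repressor of the ARNTL pair, stood at 0.17 ± 0.13 (adjusted p = 0.56).

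For age, 0 of the 32 accessory genes passed by limma and 2 had an unadjusted p under 0.05, as did 7.47% of all genes. Nfil3 had an age difference of -0.78 ± 0.20 (adjusted p = 0.481). In diabetic 21-week against 6-week mice 5 rose, 1 fell and 26 did not pass, against 0.903% of all genes that rose and 0.542% that fell. Dbp rose 4.13-fold (adjusted p = 0.0107), Bhlhe41 2.42-fold (0.00377), Tef 2.06-fold (0.0128), Usp2 2.00-fold (0.0365) and Bhlhe40 1.90-fold (0.00715). Nfil3 was the gene that fell, by 2.03-fold (adjusted p = 0.0232).

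**Figure D5:**
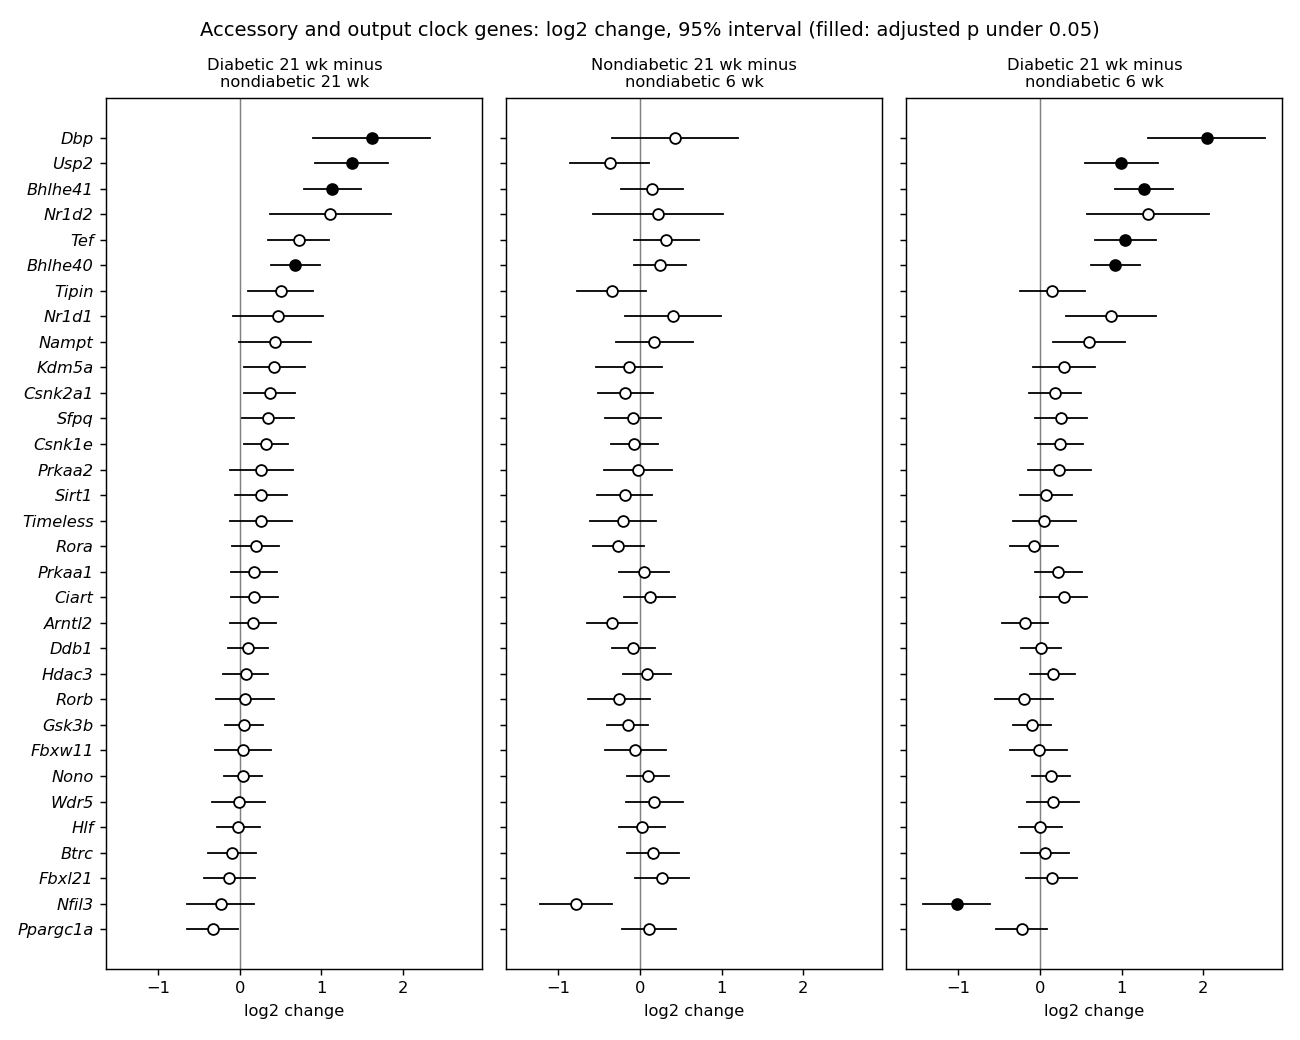
Log2 change of the 32 accessory and output clock genes in the 3 comparisons, ordered by the diabetes comparison, with the 95% interval of the limma fit and filled points where the adjusted p was under 0.05. Filled points number 4, 0 and 6 from left to right, and Nfil3 is the filled point below 0.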

How the data were processed

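Each probe set came as a log2 intensity, made by the authors from the scanned arrays; the submitters' processing notes name RMA and Affymetrix Power Tools, with no version. Of 41345 probe sets, 23521 had 1 gene symbol and 1814 had several, and the latter were left out. A probe set was kept where it exceeded its array's 25th percentile on at least 3 arrays, and the brightest stood for a gene (18826 genes). All 10 arrays entered a linear model of group means (limma 3.58.1, R 4.3.3, lmFit and eBayes), with two-sided tests and Benjamini-Hochberg adjustment over all genes at 0.05. On simulated data with 18826 genes, a log2 change of 1 was recovered for 82% of genes in the diabetes comparison and 76% in that of diabetes and age. Changes were planted in randomly drawn genes, with normal noise of the same SD in all groups. These shares therefore do not hold for genes as widely and unevenly spread as Arntl. For age 0 changes were planted, so that comparison has no such share. The members, gene lists and tests were chosen with earlier results of these data known. Named genes were the members, the accessory genes past the threshold, 9 fixed accessory genes, the glucocorticoid receptor gene Nr3c1 and, for each called member, the 3 genes with the highest correlation. Pairs of members were tested over 21 pairs, since Per2 was not measured. Alternatives changed the filter, the probe set rule, the samples fitted, the variance model, array weights, the scaling, the replicate block and single arrays.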

Additional observations from a re-analysis of the deposited data

How the results depend on the processing

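Across 20 alternatives for each comparison, the sign of the 7 clock genes' differences turned once, for the age difference of Cry1 without nondiabetic 21-week array 1 (leaving out single arrays gave -0.371 to 0.0307). For diabetes, the 2 called clock genes became 1 with only the 2 groups compared, with the replicate block and without both arrays that stood apart (chosen after seeing the data), and 1 to 2 with single arrays left out (1 without diabetic array 3 or nondiabetic 21-week array 2 or 3). In each of these Per1 kept its call. The 4 called accessory genes became 2 with only the 2 groups compared and with the replicate block, and 2 to 4 with single arrays left out (2 without diabetic array 2, 3 or 4 or nondiabetic 21-week array 3). For age, the counts of 0 became 2 clock genes and 1 accessory gene without both arrays that stood apart, and stayed at 0 with single arrays left out. For diabetes and age, leaving out single arrays gave 2 to 6 clock genes (5 with all arrays) and 1 to 9 accessory genes (6 with all). Leaving out 6-week array 1 or 3 gave 3 and 2 clock genes, and leaving out 6-week array 1, 2 or 3 gave 3, 3 and 1 accessory genes. Calls over all genes for diabetes fell from 271 to 84 without nondiabetic 21-week array 3 and to 161 with only the 2 groups compared. For diabetes and age they went from 272 to 672 with array weights and to 48 without 6-week array 3, and for age from 5 to 39 without both arrays. The cause was not tested. Over all genes, 0 of 9 same-numbered pairs had deviations that correlated above 0.1 (-0.118 to 0.066). Of the arrays, 2 correlated best with their own number in another group. With so few arrays, these values cannot show whether samples were paired.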

Other observations

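The nondiabetic 21-week samples differed among themselves in several clock genes. They were the most spread of the 3 groups in Arntl, Npas2, Cry1, Dbp, Nr1d1, Nr1d2 and Nfil3, among others. The diabetic samples were instead the most spread in Per1, Per3, Cry2, Clock, Tef and Bhlhe41, so the wide spread was not general to the clock genes. On arrays 1, 2 and 3 of that group Arntl read 4.98, 5.88 and 7.42, Npas2 4.38, 4.84 and 5.56, Dbp 6.73, 5.77 and 4.93, Nr1d1 7.99, 7.52 and 6.64, Tef 4.52, 4.14 and 4.04, Per3 4.42, 4.19 and 3.98, and Per1 6.01, 5.56 and 5.40. Nr1d2 read 5.95, 5.91 and 4.16 on the same arrays. The repressor Cry1 went the other way from Per1 and Per3, at 4.39, 5.19 and 5.17, and Nfil3 read 5.99, 5.68 and 6.43. The array numbers carry no order, and array 3 is also the array that stood apart over all genes. The 6-week samples were close to one another in the same genes, with an SD of 0.05 for Arntl and 0.11 for Npas2. Clock and Cry2 had narrow ranges in the nondiabetic 21-week samples, of 7.59 to 7.73 and 4.88 to 4.95.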
